A study of Mus musculus with 16 samples.

Results

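Transcripts of the blood coagulation factors were followed in 10 genes: prothrombin (F2), factors V, VII, IX, X, XI and XII (F5, F7, F9, F10, F11, F12) and the 3 chains of fibrinogen (Fga, Fgb, Fgg). Every probe that the platform annotation names for these genes was used, which gave 14 of the 46643 probes on the array, with a pair of probes each for F5, F11, F12 and Fga. The values come from 16 Illumina MouseWG-6 arrays, each with RNA of a sample labelled by tissue, from a female C57BL/6 mouse housed alone. Control mice were kept at 22°C for 72 h and cold-exposed mice at 22°C for 48 h and then at 8°C for 24 h. Arrays labelled brown adipose tissue (BAT) and white adipose tissue (WAT) number 3 for each temperature, and those labelled liver number 2, after a failure among the liver samples that the methods mention. The question put by the design is whether a day in the cold alters transcript levels in each tissue.

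Coagulation factors circulate in plasma as inactive precursors, and most are cut into an active enzyme or cofactor by another enzyme of the cascade. Factors XII and XI start the contact route, factor VII starts the tissue factor route, and both routes meet at factor X, which with factor V releases thrombin from prothrombin. Thrombin then cuts fibrinogen, a protein of paired alpha, beta and gamma chains, into fibrin. Hepatocytes are the main source of nearly all of these proteins, so the transcripts are classed as liver transcripts and are not typical of adipocytes.

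Signals below are the deposited intensities, with background already subtracted, so that values near 0 or below it lie at the level of the negative controls. A probe is called detected on an array at a detection score of at least 0.95, on a scale that ends at 1. Log2 changes, standard errors (SE) and adjusted p-values come from 1 limma fit to background-corrected and quantile-normalized log2 values of all 16 arrays, with the Benjamini-Hochberg adjustment taken over 39730 tested probes. A change is called where the adjusted p is under 0.05. A gene stands for its brightest probe, and 9 of the 10 genes had a probe that was tested. Where no array of the dimmer group detected a probe, the fold is a lower bound and is written as "at least".

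Markers of cell type went against the labels WAT and liver. On the arrays labelled WAT at 22°C, 12 of 13 hepatocyte markers were detected on every array, with a summed signal of 133000 to 139100, and Hpx, the haem carrier hemopexin of plasma, had a mean signal of 16320. The 11 adipocyte markers summed to 1033 to 1519 there, against 31950 to 34620 in BAT at 22°C. Of these 11, 4 were detected on every labelled WAT array at 22°C, with Pnpla2 the brightest (mean signal 816.3). Another 3 (Lep, Plin1 and Retn) were detected on none. The arrays labelled liver carried adipocyte markers at both temperatures (summed signal 40630 to 55840 at 22°C and 52720 to 62290 at 8°C), while their hepatocyte markers summed to 77060 to 117500 at 22°C and 6169 to 11510 at 8°C. These arrays are therefore called "labelled WAT" and "labelled liver" throughout, no array was moved or left out, and every direction given for them is that of the label. Alb, the albumin gene, had a probe with group mean signals of -4.3 to 7.2, detected on 1 of the 16 arrays, so it tells nothing of hepatocytes here.

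At 22°C the coagulation genes were bright on the arrays labelled WAT, less bright on those labelled liver and dim in BAT. Fga, the alpha chain of fibrinogen (probe 21032), had signals of 17695, 15623 and 16891 on labelled WAT, 12416 and 8125 on labelled liver and 343.3, 208.0 and 470.2 in BAT. The 3 sets of arrays did not overlap, and Fga was detected on all 8. Fga was 47.6-fold higher on labelled WAT than in BAT (log2 difference 5.57, SE 0.451, adjusted p = 1.36e-06), and 29.4-fold higher on labelled liver than in BAT (4.88, SE 0.504, adjusted p = 3.57e-05). Labelled WAT and labelled liver differed by 0.69 (SE 0.504, adjusted p = 0.544), with a 95% interval of 1.1 to either side. The other Fga probe (21033) was 43.6-fold higher on labelled WAT than in BAT.

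F2, the precursor of thrombin (probe 20637), read 3959, 3659 and 4159 on labelled WAT, 2669 and 1156 on labelled liver and 74.9, 41.1 and 74.9 in BAT. The order of the groups was that of Fga, with no overlap. F10, the enzyme that activates prothrombin (probe 20630), read 3405, 3210 and 3873 on labelled WAT, 2382 and 1023 on labelled liver, and 37.4, 35.7 and 32.9 in BAT. Again no group overlapped another, and all 3 BAT arrays detected F10. F5, the cofactor of factor X (probe 20645), read 771.4, 720.2 and 1123 on labelled WAT and 502.0 and 216.0 on labelled liver. Its BAT signals of 23.6, 4.9 and 10.8 were close to background, and 1 of the 3 arrays detected it.

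F9, the haemophilia B factor (probe 20742), read 2977, 3140 and 3206 on labelled WAT, 1548 and 870.4 on labelled liver and 45.9, 22.2 and 41.1 in BAT. F7, the partner of tissue factor (probe 20660), read 764.3, 493.7 and 525.0 on labelled WAT and 232.5 and 133.8 on labelled liver, and no BAT array detected it (6.4 to 10.8). F9 was thus detected on all BAT arrays at 22°C and F7 on none. F11 (probe 20632) read 1331, 1206 and 1666 on labelled WAT, 788.2 and 412.5 on labelled liver and 19.9, 12.0 and 15.4 in BAT. F12 (probe 20635) read 3940, 2678 and 2906 on labelled WAT, 1172 and 677.6 on labelled liver and 21.2, 15.1 and 20.7 in BAT. Both contact route enzymes were detected on all 3 BAT arrays.

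For these 8 genes labelled WAT was higher than BAT at 22°C, where 11.7% of all 15324 genes tested were higher, with folds from at least 21.7 (F7) to 89.6 (F12). Labelled liver was higher than BAT for the same 8 genes (background 7.69%), from at least 6.97-fold for F7 to 31.2-fold for F10. Between labelled WAT and labelled liver, 4 genes were higher on labelled WAT (background 7.22%): F12 by 3.42-fold, F7 by 3.11-fold, F9 by 2.64-fold and F11 by 2.39-fold, with adjusted p of 0.000374, 0.000497, 0.00556 and 0.0045. F2, F5 and F10 were 2.21-fold, 2.52-fold and 2.21-fold higher with adjusted p of 0.0733, 0.0923 and 0.0639. That count of 4 became 7 without the first labelled liver array at 22°C and 2 without the second. On labelled liver at 22°C the first array was above the second for all 8 genes, by a median of 0.869 log2 units (0.596 to 1.21), and for all 12 detected hepatocyte markers by a median of 0.865; the part of hepatocyte RNA in the difference between labels was not tested.

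**Figure D1:**
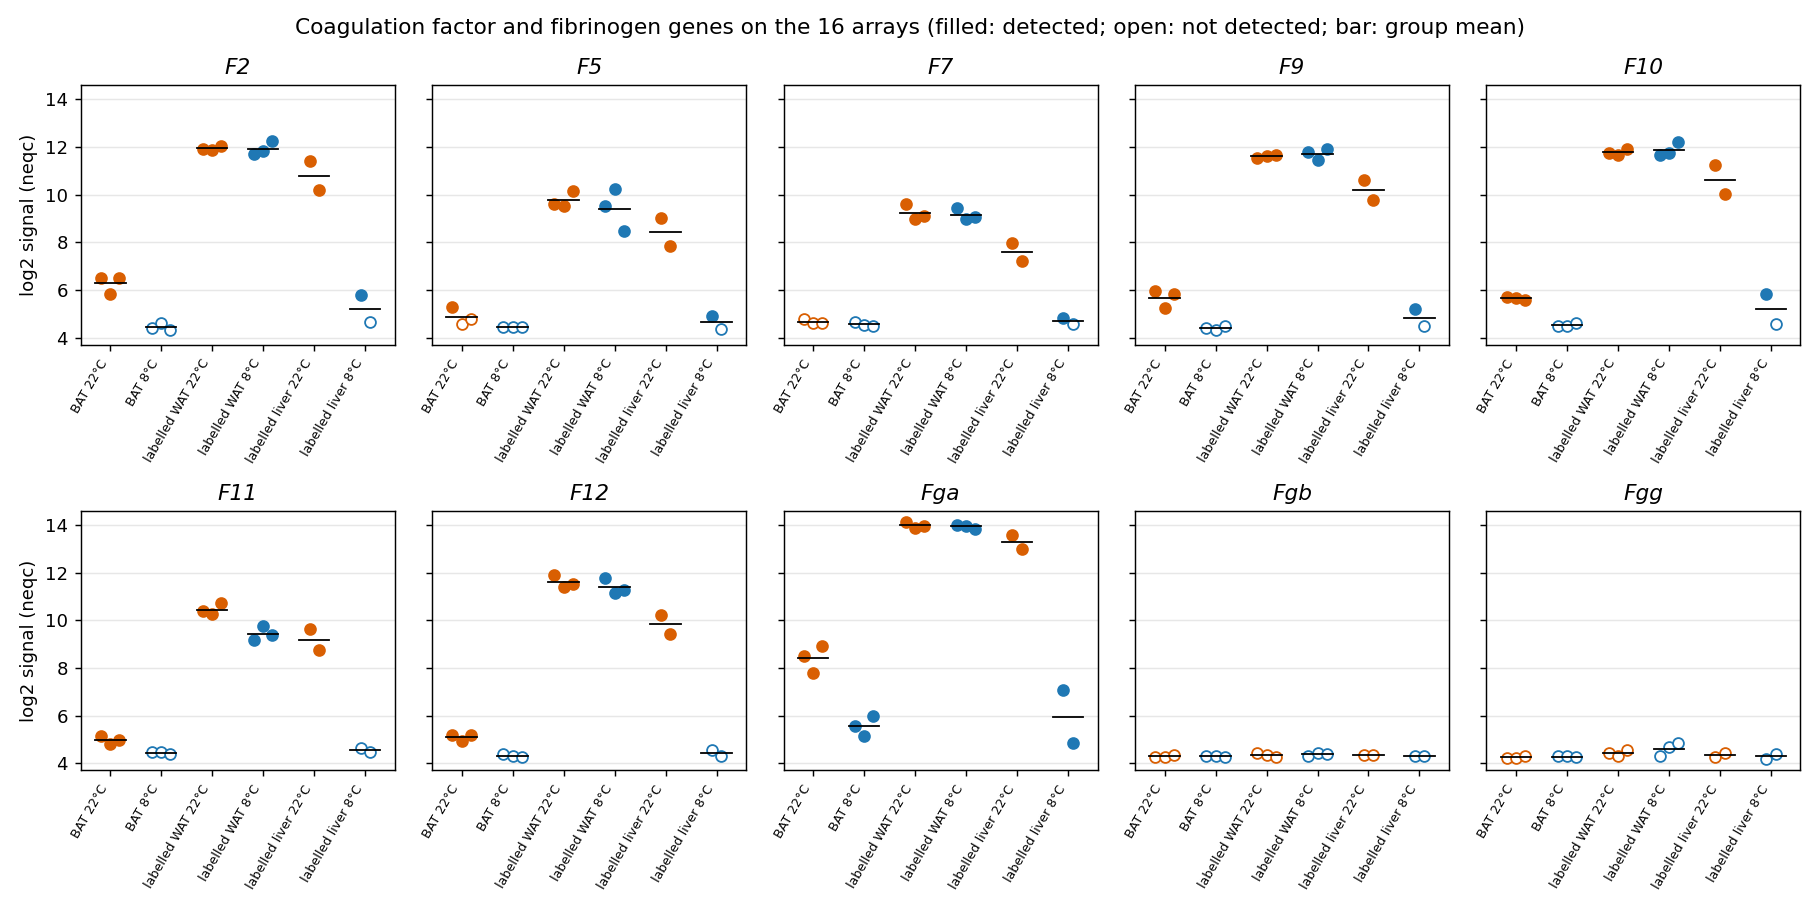
Log2 signal after background correction and quantile normalization (y axis) of the brightest probe of each gene, or for Fgb its single probe, on the 16 arrays by tissue label and temperature (x axis). Filled points were detected, open points were not, and bars are group means; the arrays labelled WAT sit high at both temperatures for 8 genes, those labelled liver are high at 22°C and low at 8°C, and Fgb and Fgg stay at background on every array.

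The beta and gamma chains of fibrinogen could not be followed. The Fgb probe (21034) had signals of -10.3 to 0.4 with a highest score of 0.538, and failed the filter that asked for a score of 0.6 on 2 arrays. The Fgg probe (21098) had signals of -16.6 to 12.3 with a highest score of 0.924, and was detected on 0 of 16 arrays. The 3 fibrinogen genes are neighbours on mouse chromosome 3, and the chains are assembled together in the hepatocyte, but signals at background on arrays where Fga reached 17816 say nothing of the Fgb and Fgg transcripts. Fgg had no called change in any of the comparisons.

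Cold exposure left the 8 detected genes at high signals on the arrays labelled WAT. Fga read 17816, 15746 and 15041 at 8°C, F2 3386, 3483 and 4726, and F12 3540, 2264 and 2414. These ranges overlapped those at 22°C. F9 read 3523, 2761 and 3813, F10 3240, 3307 and 4679, and F7 686.1, 491.8 and 509.6, also overlapping. F5 spread most, with 711.1, 1182 and 340.4 (log2 SD 0.885, against 0.333 at 22°C), replicate 3 being the lowest.

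None of the 9 genes tested passed on labelled WAT (0 called by limma, against 0.0653% of all genes lower), 1 was lower at an unadjusted p under 0.05 (3.78% of all genes), and their median log2 change was -0.0352 against -0.00454 over all genes. The 1 gene was F11, the enzyme that activates factor IX. Its signals at 8°C were 556.4, 850.4 and 648.8, all below the 3 arrays at 22°C. The difference was 2.02-fold (log2 -1.02, SE 0.211, unadjusted p = 0.000402), with an adjusted p of 0.21. Without the first or the second labelled liver array at 22°C in the fit the adjusted p was 0.0454 and 0.0442. The second F11 probe (20631), which is much dimmer, gave -0.34 (adjusted p = 0.818). For Fga the change was -0.04 with a 95% interval of 0.981 to either side, and for F9 0.10 with 0.53. Exocrine pancreas markers varied widely among the cold arrays labelled WAT (summed signal 48 to 61320), and their part in the spread of F5 or F11 was not tested.

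On the arrays labelled liver the same transcripts were much lower in the cold. Fga read 118.1 and 12.6 at 8°C, both detected, against 12416 and 8125 at 22°C. It fell 160-fold (log2 -7.33, SE 0.552, adjusted p = 4.72e-06), and its second probe gave -7.36. The prothrombin gene and the vitamin K-dependent factors IX and X fell as well. F2 read 40.1 and 7.2 at 8°C and fell 47.6-fold (-5.57, SE 0.397, adjusted p = 3.01e-06). F10 read 41.9 and 5.3 and fell 42.8-fold (-5.42, SE 0.384, adjusted p = 2.9e-06). F9 read 21.5 and 2.0 and fell 41.2-fold (-5.36, SE 0.298, adjusted p = 6.97e-07). In each of these the first array was the higher, and for F2, F9 and F10 only that array detected the probe.

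F12 read 4.7 and -7.4 and F11 7.0 and 1.9, both undetected on the 2 cold arrays. F12 fell by at least 36.3-fold (fitted log2 -5.40, SE 0.255, adjusted p = 2.11e-07) and F11 by at least 23.4-fold (-4.64, SE 0.258, adjusted p = 6.97e-07). The bounds for F11 and F12 are set by the floor of detection and do not rank them against the other genes. F5 read 14.1 and -2.5 and fell 13.9-fold (-3.79, SE 0.49, adjusted p = 0.000581). F7 read 12.1 and 4.6 and fell 7.44-fold (-2.89, SE 0.245, adjusted p = 1.28e-05). For F5 and F7 too, only the first cold array detected the probe. The fitted folds of F2, F5, F7, F9 and F10 thus give no ranking either. On the authors' value table the log2 change was -7.48 for F12 and -6.69 for F2. For all 8 genes each signal at 8°C lay below each signal at 22°C. The share of all genes so separated was not counted, and with 2 arrays a group such separation says little.

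In all, 8 of the 9 genes tested were lower in the cold on labelled liver, against 3.37% of the 15324 genes, with a median of -5.36 against 0.0217 over all genes. The exception was Fgg, at background on all arrays. From these same arrays the paper already reports a fall in liver for F2, F5, F7, F9, F11 and F12. The genes were chosen with earlier results known, so their count against the share of all genes is no independent test. The dimmer probes gave smaller values for F12 (-1.76, adjusted p = 0.14), F11 (-0.34, adjusted p = 0.616) and F5 (-2.61, adjusted p = 0.000394). The number of genes called stayed at 8 whichever single array was left out, but the sizes of the falls did not. Fga fell 344-fold without the first labelled liver array at 8°C and 74.6-fold without the second, and F10 66.2-fold and 27.7-fold. F2 fell 31.5-fold without the first labelled liver array at 22°C and 72.2-fold without the second, and F10 too moved by over 1.5 times without either of these. Fitted within labelled liver alone, on 4 arrays, 0 of the 8 passed (adjusted p 0.199 to 0.252, all 8 at an unadjusted p under 0.05), with the same fold changes. The small adjusted p of the shared fit thus rest on a spread pooled over all groups. Hepatocyte markers moved with these genes: 11 of 13 were lower in the cold on labelled liver, with a median of -6, and Hpx went from a mean signal of 10230 to 72. Other tissues' markers were uneven on the same arrays. Brown adipocyte markers summed to 1707 to 2552 at 22°C and 3298 to 30230 at 8°C (median log2 change 1.42), skeletal muscle markers to 925.7 to 1394 and then 910.7 to 18540 (1.53), and exocrine pancreas markers to 69.1 to 1822 and then 13.5 to 15.8 (-1.46), with 0 of 11, 0 of 11 and 0 of 6 called. Their part in the falls was not tested. A smaller share of hepatocytes in the sample and less RNA of these genes per hepatocyte cannot be told apart in such bulk RNA.

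**Figure D2:**
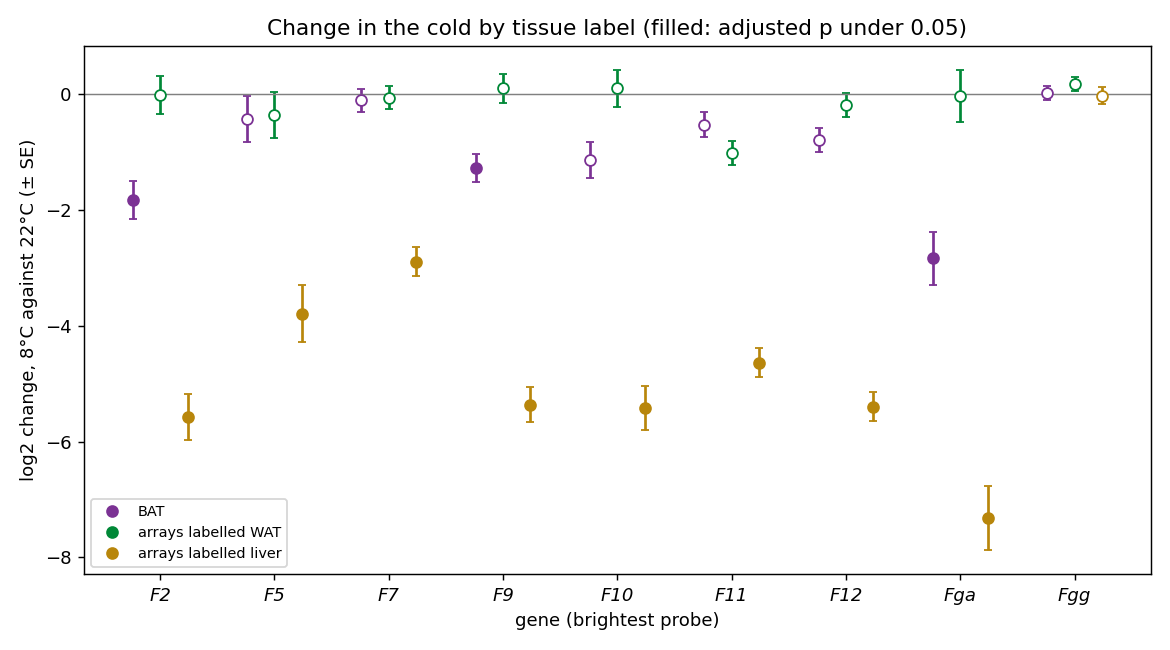
Log2 change between 8°C and 22°C (y axis, ± SE) for the brightest probe of each of the 9 genes tested (x axis), by tissue label. Filled points have an adjusted p under 0.05: the 8 genes other than Fgg on labelled liver, from -7.33 to -2.89, and F2, F9 and Fga in BAT, while labelled WAT has none.

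In BAT the coagulation transcripts were dim at 22°C and dimmer still in the cold. Fga read 31.9, 19.6 and 48.4 at 8°C, detected on all 3 arrays, against 208.0 to 470.2 at 22°C, and fell 7.15-fold (log2 -2.84, SE 0.451, adjusted p = 0.0173). Its second probe gave -3.71 (SE 0.499, adjusted p = 0.00703). Both remaining called genes went out of detection in the cold. F2 read -0.4, 5.8 and -6.7, undetected, and fell by at least 2.63-fold (fitted log2 -1.83, SE 0.324, adjusted p = 0.0273). F9 read -1.9, -6.8 and 2.4, undetected, and fell by at least 1.73-fold (fitted log2 -1.27, SE 0.244, adjusted p = 0.0418). All cold arrays lay below all arrays at 22°C for the 3 genes, and the share of all genes so separated was not counted.

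Of the remaining genes F10 changed by -1.13 (SE 0.314, adjusted p = 0.186), with signals of 2.4, 1.9 and 6.6 in the cold. F12 gave -0.79 (adjusted p = 0.154), F11 -0.53 (adjusted p = 0.47), F5 -0.43 (adjusted p = 0.901) and F7 -0.11 (adjusted p = 0.975), the last at background at both temperatures. F10, F11 and F12 went from 3 of 3 arrays detected to 0 of 3, which bounds their folds only at 1.73, 1.08 and 1.18 or more. Thus 3 of 9 genes were lower in the cold in BAT, against 0.587% of all genes, 6 at an unadjusted p under 0.05 (6.09% of all genes), with a median of -0.792 against 0.000636 over all genes.

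The count in BAT depended on single arrays. No gene passed when replicate 1 or 3 of BAT at 22°C, or replicate 1 or 2 of BAT at 8°C, was left out, and 1 (Fga) passed without replicate 3 at 8°C. F9 passed in only 7 of the 16 fits that left out an array, with changes of -1.48 to -1.13. Without the 4 arrays labelled liver, 4 genes were lower, and the share of all genes in that fit was not counted. Hepatocyte markers moved in the same direction: 5 of 13 were lower in the cold (Ttr, Ahsg, Apoa1, Vtn and Ass1), with a median of -1.86 and a summed signal of 3028 to 8584 at 22°C and 1137 to 1232 at 8°C. Skeletal muscle markers summed to 47210 to 68640 at 22°C and 34560 to 48570 at 8°C in BAT, with 0 of 11 called. The part of either in the change of the coagulation genes was not tested.

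Set against the mean of the arrays labelled WAT at 22°C, the 8 genes gave a common measure of each array. In BAT at 22°C the median over the genes was 1.65%, 0.939% and 1.17% on the 3 arrays, and over 12 hepatocyte markers 2.25%, 1.35% and 2.54%. The second array was the lowest for both. In the cold BAT arrays the medians were 0.0687%, 0.0857% and 0.096% for the coagulation genes and 0.286%, 0.34% and 0.602% for the markers. Fga alone of the 8 genes was detected there, so the medians of the coagulation genes lie at background. On labelled liver they were 56.9% and 28.6% at 22°C and 0.864% and 0.105% at 8°C, with 82% and 41.2%, then 1.03% and 0.193%, for the markers. The first array was above the second for both sets at each temperature. On the second cold array, too, Fga alone of the 8 genes was detected. Cyp2e1, a cytochrome P450 on the hepatocyte list, stayed high on the cold labelled liver arrays, with mean signals of 16000 at 22°C and 7720 at 8°C (adjusted p = 0.472). Every BAT array detected it too, with mean signals of 2471 at 22°C and 676.2 at 8°C. Whether its signal came from hepatocytes was not tested.

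**Figure D3:**
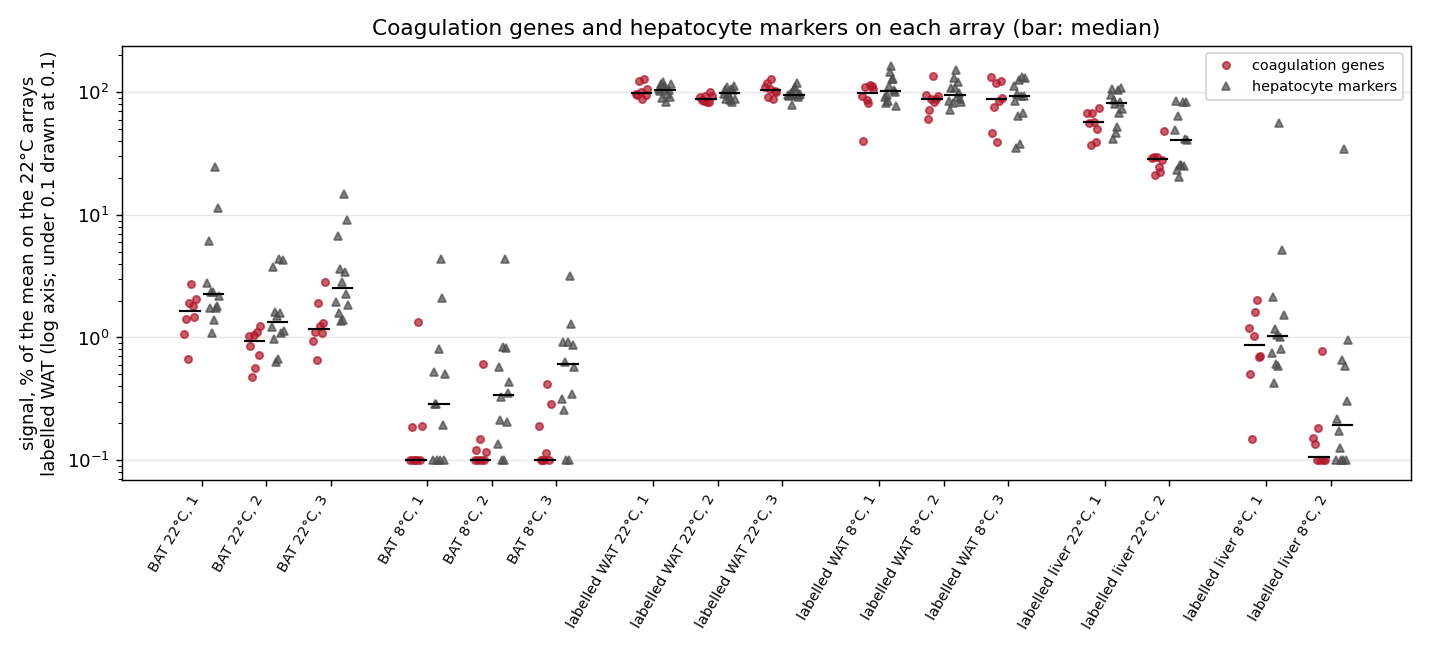
Signal of 8 coagulation genes (circles) and 12 hepatocyte markers (triangles) on each of the 16 arrays (x axis), as a percentage of the same probe's mean on the 22°C arrays labelled WAT (y axis, log scale, values under 0.1 drawn at 0.1); bars are medians. Circles and triangles go up and down together over the groups, near 100% on labelled WAT, at 28.6% to 82% by median on labelled liver at 22°C, and at or under 2.54% by median on BAT and on labelled liver at 8°C.

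The difference between tissue labels in the response to cold was tested directly. The change was less negative in BAT than on labelled liver for 8 genes (background 2.4%), by fitted values of 2.79 (F7) to 4.61 (F12) log2 units, and less negative on labelled WAT than on labelled liver for 8 genes (background 2.3%), by 2.83 (F7) to 7.29 (Fga). These comparisons share the labelled liver arrays. The count for BAT was 3 with no further background correction and 4 on the authors' value table. Only Fga, with a difference of 4.49 (SE 0.713, adjusted p = 0.00501), was detected on every BAT and every labelled liver array. The other 7 genes were undetected in cold BAT, so a larger fall there could not have been seen, and the fitted sizes of their differences from labelled liver are set in part by the floor of detection. Between BAT and labelled WAT 0 genes differed by limma (background 0.00653%), although 4 had an unadjusted p under 0.05 with the change more negative in BAT (background 4.21%), among them Fga with a difference of -2.80 (SE 0.638, adjusted p = 0.201). Without the 4 arrays labelled liver, 3 genes passed, with the change more negative in BAT. The share of all genes in that fit was not counted.

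At 8°C labelled WAT was higher than BAT for 8 genes (background 11.6%) and higher than labelled liver for 8 genes (background 12%). Fga was 332-fold higher on labelled WAT than in BAT, and compared with labelled liver the fold was 253. BAT and labelled liver, separated at 22°C, had no called difference at 8°C (0 of 9 genes by limma and 0 at an unadjusted p under 0.05). Over all genes tested, 1826 were higher on labelled liver (11.9%) and 1513 were lower. In cold BAT no array detected a member other than Fga, and the second cold labelled liver array detected none of those either. For all members but Fga the floor of detection could therefore hide a difference. For Fga that difference was 0.39 with a 95% interval of 1.1 to either side, so a difference of 2-fold in either direction lies within it. The absence of called differences between BAT and labelled liver did not hold without the second cold labelled liver array, the lower of the pair. That fit leaves a single array in the group.

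The sequence upstream of 2 genes is shown because Fga fell both in BAT and on labelled liver and F11 was the gene with an unadjusted difference on labelled WAT. Each stretch holds the 250 bases before the RefSeq transcription start on the GRCm38.p6 build, read 5′ to 3′ on the strand of the gene. Capitals mark matches, on either strand, to the motifs of the liver factors HNF1 (GTTAAT), HNF4 (CAAAGTC) and C/EBP (TTGCNNAA) and to the TATA box (TATAAA).
Fga: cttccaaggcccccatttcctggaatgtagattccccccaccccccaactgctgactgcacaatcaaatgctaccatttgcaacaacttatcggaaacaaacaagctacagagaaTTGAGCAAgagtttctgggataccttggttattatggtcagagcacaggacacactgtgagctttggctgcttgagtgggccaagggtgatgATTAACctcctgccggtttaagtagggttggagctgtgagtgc
F11: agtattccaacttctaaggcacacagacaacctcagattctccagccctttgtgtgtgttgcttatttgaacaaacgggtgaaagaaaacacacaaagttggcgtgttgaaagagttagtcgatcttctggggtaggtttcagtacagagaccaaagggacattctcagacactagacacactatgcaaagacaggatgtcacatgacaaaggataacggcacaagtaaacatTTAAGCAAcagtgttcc
Fga lies on the plus strand (chr3:83025903-83026152) with a C/EBP match 135 to 128 bases and an HNF1 match 43 to 38 bases before the start. F11 lies on the minus strand (chr8:45262032-45262281) with a C/EBP match 17 to 10 bases before the start.

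Over the promoters of all 10 genes, the C/EBP motif was present in 4 (F9, F11, Fga and Fgb), against 9.55% of 27025 mouse promoters of the same length. The HNF1 motif was present in 2 (Fga and Fgb), against 6.52%. The HNF4 motif and the TATA box were present in 0, against 3.8% and 13%. A match is a run of letters and not a binding site, and a window without a match says only that these letters are not in it. Every member other than Fgb and Fgg fell on labelled liver in the cold, with or without a match. The part of the motifs in this was not tested.

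Other genes of coagulation and fibrinolysis were taken from 5 lists with 35 genes, of which 30 had a tested probe. On labelled liver 12 of these were lower in the cold and 1 higher, against 3.37% and 1.18% of all genes. Kng1, a kininogen gene whose product carries factor XI and prekallikrein in the contact route, fell 95.2-fold (log2 -6.57, SE 0.451, adjusted p = 2.21e-06), from a mean signal of 16630 to 200.4. Serpinf2, the inhibitor of plasmin, fell 79.5-fold (-6.31, SE 0.37, adjusted p = 7.89e-07). Kng2, the other mouse kininogen gene and a close paralog, so that the probes may share signal, fell 75.5-fold (-6.24, SE 0.34, adjusted p = 6.56e-07). The fall of Kng1 was 192-fold without the first labelled liver array at 8°C and 47.3-fold without the second, and that of Kng2 49.9-fold without the first at 22°C and 114-fold without the second. Plat, tissue plasminogen activator, which is made by endothelial cells, rose 2.01-fold, from a mean signal of 61.9 to 140.6 (1.01, SE 0.177, adjusted p = 0.00697), with an adjusted p of 0.105 without the first labelled liver array at 22°C and of 0.0513 without the first at 8°C.

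By list, 4 of 7 contact and cofactor genes fell on labelled liver, 1 of 3 vitamin K cycle genes, 5 of 12 coagulation inhibitors, 2 of 5 fibrinolysis genes and 0 of 3 thrombin receptors. In BAT 1 of the 30 genes passed, too few to read against the 0.587% of all genes. This was Serpinf2, which was detected on all 3 arrays at 22°C (mean signal 64.7) and on none in the cold (2.93), and fell by at least 2.65-fold (fitted log2 -1.76, SE 0.302, adjusted p = 0.0245). It did not pass without replicate 1 or 3 of BAT at 22°C or replicate 1 or 3 of BAT at 8°C (adjusted p 0.0882 to 0.108). On labelled WAT 0 of the 30 passed (0.0653% of all genes were lower). Kng1 in BAT, singled out after its values were seen, had mean signals of 4459 at 22°C and 5025 at 8°C (log2 0.20, SE 0.368, adjusted p = 0.974), against 20070 on labelled WAT at 22°C. Vwf, the carrier of factor VIII made by endothelial cells, and F3, tissue factor itself, were also chosen after their values were seen: their changes on labelled liver were -0.05 (adjusted p = 0.997) and 0.84 (adjusted p = 0.415).

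**Figure D4:**
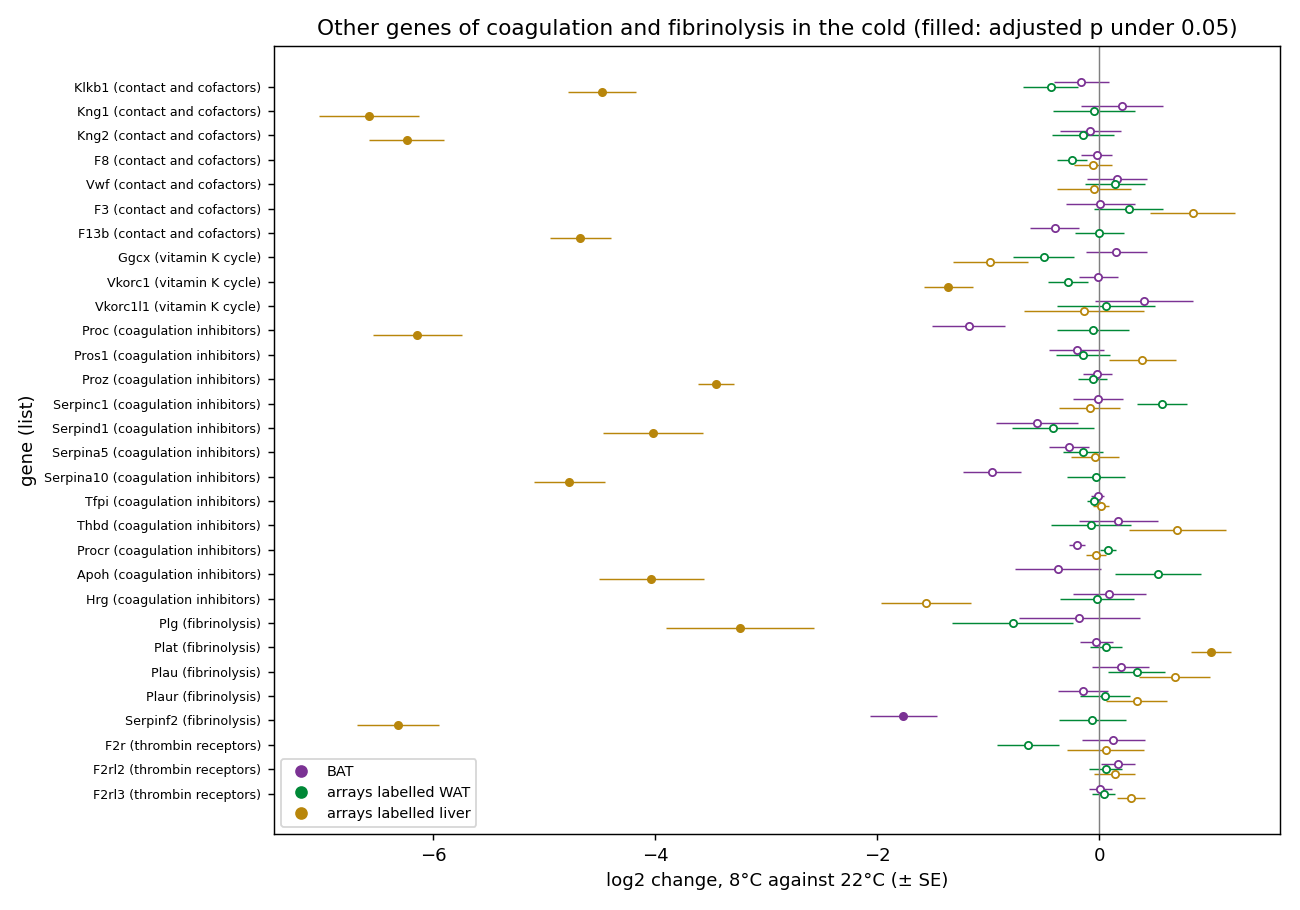
Log2 change between 8°C and 22°C (x axis, ± SE) of the 30 other coagulation and fibrinolysis genes tested (y axis, with their list) by tissue label. Filled points have an adjusted p under 0.05: 12 lower and Plat higher on labelled liver, Serpinf2 lower in BAT, and none on labelled WAT.

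The genes whose pattern over the 16 arrays was closest to the median of the 8 detected members, by the root mean square of the difference in centred log2 values, were Slc38a3 (0.192), Cyp4f14 (0.219), Prodh2 (0.248), Ttc36 (0.258) and Aspdh (0.261). Among the members themselves F12 (0.165) and F9 (0.17) lay closest, then F10 (0.267) and F2 (0.377). The median is taken over these same members, so their closeness to it is in part built in. F11, Fga, F5 and F7 lay further off, at 0.756, 0.896, 0.936 and 1.1, ranks 132, 157, 163 and 197 among all genes. Their ranges over the arrays were 6.33, 9.25, 5.86 and 5.12 log2 units, against 7.6 and 7.63 for F9 and F12.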

How the data were processed

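The authors deposited signal intensities of 46643 probes, with background subtracted and made nearly equal in distribution on every array by a step that is not given in the sources used here, although headed as not normalized (median signal 2.7 on each array). They also deposited a detection score of 0 to 1, headed as a p-value but rising with the signal, and a value table in log2, which equals the signals with a floor of 5 minus each probe's median over the arrays, to within 2.54e-06; 57.5% of the signals lie under that floor. Handling in GeneSpring GX is stated in the methods.

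Groups came from the sample titles. Background correction and quantile normalization used neqc (limma 3.58.1, R 4.3.3; offset 16). The 39730 probes that scored 0.6 or more on 2 or more arrays were fitted with limma over 6 group means, in place of the methods' t-test. Platform annotation gave a gene symbol to 22268 tested probes, for 15324 genes. For a lower bound, a group without detection was set to the higher of each array's lowest detected signal and the probe's own. Arrays had 11915 to 17399 detected probes; the number of arrays limits the precision. Within a label and temperature the arrays are of different animals, but per the methods all tissues came from the same mice, and the labels do not tie arrays of different tissues to an animal; comparisons between labels treat them as independent.

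The text names the 10 genes, every probe of each, and from the 5 lists those called in BAT or labelled WAT, the 3 with the largest change on labelled liver and any that rose, plus the 5 genes most like the members. The members and lists were chosen with earlier results of these data known, among them falls that the paper reports for liver. Shares of all genes set beside their counts are therefore descriptions and not independent tests. The fit was tested on simulated data. Alternatives were other background corrections, scalings and filters, the value table, a replicate block, separate fits, the methods' t-test and leaving out each array; 2 fits, one omitting all 4 labelled liver arrays and one with the replicate number within each temperature as a random block, were added after the data had been seen. Promoters are RefSeq's (GRCm38.p6), found for all 10 genes. Probe sequences, proteins and qRT-PCR were not used here.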

Additional observations from a re-analysis of the deposited data

Results flagged for a closer look

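The response to cold differed between tissue labels for 8 coagulation genes and for the named pathway genes, by limma's test of the difference itself (log2 units, adjusted over all probes tested). The fitted cold change in BAT exceeded that on labelled liver by 3.74 for F2, 3.36 for F5, 2.79 for F7, 4.09 for F9, 4.29 for F10, 4.11 for F11, 4.61 for F12 and 4.49 for Fga, with adjusted p of 2.26e-05 to 0.0157. All but Fga were undetected in cold BAT, where a larger fall could not have been seen, so the floor of detection sets the size of these differences in part. The count of 8 was 3 with no further background correction and 4 on the authors' value table. For Kng1, Kng2 and Serpinf2 the difference was 6.78, 6.16 and 4.55, and for Plat, which rose on labelled liver, it was -1.03 (adjusted p = 0.0417).

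The cold change on labelled WAT exceeded that on labelled liver by 5.55 for F2, 3.43 for F5, 2.83 for F7, 5.46 for F9, 5.52 for F10, 3.62 for F11, 5.2 for F12 and 7.29 for Fga, with adjusted p of 5.49e-06 to 0.0139. For Kng1, Kng2 and Serpinf2 it was 6.53, 6.09 and 6.25. Both sets of differences use the same 4 arrays labelled liver, on which hepatocyte markers were lower in the cold as well (median -6 over 13 genes). Groups of 2 or 3 arrays are too small for the search for outlying arrays, which was not run.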

How the results depend on the processing

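Of the values recomputed under settings other than leaving out an array, 452 kept their direction and side of the threshold or stayed within 1.5 times, 39 lost significance, 12 gained it and 20 counts moved by more. In BAT the count of 3 genes lower in the cold became 1 with an offset of 50, 6 by the methods' t-test at an unadjusted p with a 2-fold minimum and 0 by that test after Benjamini-Hochberg (6 unadjusted), and 0 to 3 on leaving out an array. On labelled WAT the count of 0 became 1 by the unadjusted t-test and 0 to 1 on leaving out an array. On labelled liver the count of 8 became 0 in a separate fit (8 unadjusted) and 0 by the t-test after Benjamini-Hochberg (7 unadjusted), fits with fewer arrays to estimate the spread.

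The number of genes whose cold change differed between BAT and labelled liver, 8, became 3 with no further background correction and 4 on the authors' value table; that between BAT and labelled WAT, 0, became 3 without the 4 arrays labelled liver and 0 to 1 on leaving out an array, the 1 arising without either cold labelled liver array. The count of 4 for labelled WAT against labelled liver at 22°C became 0 with no further correction, 7 with a filter at a score of 0.95, and 2 to 7 on leaving out an array. The count of 0 for labelled liver against BAT at 8°C became 1 with no further correction and 0 to 3 on leaving out an array. The cause was not tested. Shares of all genes under these settings are not given beside the counts, which show only how far the calls moved.

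On labelled WAT, leaving out an array turned the sign of changes that were not called, which ranged from -0.18 to 0.0787 for F2, -0.78 to 0.10 for F5, -0.21 to 0.13 for F7, -0.0029 to 0.24 for F9, -0.0753 to 0.20 for F10 and -0.0918 to 0.0268 for Fga. In BAT, F2 lost its call without any 1 of 5 BAT arrays, Fga without any of 4, and F9 without any of 9 arrays; F9 also lost it under 75th percentile scaling, with no filter and in a separate fit (adjusted p 0.0515 to 0.0606), and Fga with no further background correction and on the value table (0.0612 and 0.0705). Named pathway genes called in BAT, 1 of 30, ranged from 0 to 4 over the alternatives. Replicate numbers are shared between temperatures, but deviations of same-numbered arrays correlated at -0.0718 to 0.104 over probes, so the numbers do not pair them; with a replicate block the counts were 4 in BAT, 0 on labelled WAT and 8 on labelled liver. Between labels the correlations were 0.093 to 0.174 at 22°C and -0.133 to 0.137 at 8°C, and no label ties a number to a mouse. With the replicate block, or the number within each temperature as a random block (consensus correlation 0.00102, chosen after seeing the data), the counts between labels did not move. Signals at background limit the folds in BAT of all members but Fga.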
